A study of Saccharomyces cerevisiae with 8 samples.

Results

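The comparison sets budding yeast (Saccharomyces cerevisiae) of the strain labelled ubc9-1 against the strain labelled UBC9 (wild type, WT), both given 100 nM rapamycin for 30 minutes in YPD, a rich medium. It takes 4 of the 8 libraries of the series, 2 per strain, which were chosen by their labels. Every one of the 7126 annotated features was a member; 6731 had a count and 6115 passed the filter on low counts and were tested. The other 4 libraries are the same strains with no drug, and they serve here as the background to the strain difference. Total RNA was used, and RNA of 50 to 100 nt was selected before sequencing. The labels give neither the lesion in ubc9-1 nor other differences in genotype, and they do not say whether replicates were separate cultures, so the p-values measure only the spread between these libraries, which may be technical.

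The submitters' design text calls the ubc9-1 strain deficient in a SUMO ligase. UBC9 encodes the enzyme that conjugates SUMO, a small protein modifier, to lysines of other proteins. Rapamycin inhibits the kinase complex TORC1, which in growing yeast promotes transcription of tRNA, 5S rRNA and the genes for making ribosomes, and holds back genes of the stress response and of the use of poor nitrogen sources. From the series title, the study asks how TORC1, by way of SUMO, acts on RNA polymerase III, whose main products are tRNA and 5S rRNA. In RNA of this size, whole tRNAs and many snoRNAs are read in full, while counts on mRNAs come from fragments. Several noncoding RNAs reported below are also longer than the selected size. Their genes include RDN5-1 (121 nt), SNR14 (160 nt), SCR1 (522 nt), SNR30 (606 nt) and mitochondrial 15S rRNA (1649 nt). Counts on these come from fragments or from RNA outside that size, so a strain difference need not be that of the whole RNA. Which of these sources gave the counts was not tested.

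The libraries held 14304014 and 14712987 assigned counts for ubc9-1 with rapamycin, against 20948512 and 21061460 for WT with rapamycin. Depth therefore separates the strains, and its part in a result cannot be told apart from that of strain. Values are given as CPM after TMM scaling, an adjustment for differences in library make-up (TMM-scaled CPM). Across features, replicates correlated with a Pearson r of log2 CPM of 0.975 in ubc9-1 and 0.978 in WT. Across features these are not independent points. Of all assigned counts, 5S rRNA took 35.9% and 31.2% in ubc9-1, against 19.2% and 17.1% in WT. Nuclear tRNA took 9.18% and 7.59% in ubc9-1, against 21.8% and 18.1% in WT. Neither pair of ranges overlapped, with a two-sided p of 0.33 by exact permutation, the smallest that 2 against 2 libraries allow. Most other RNA classes did not overlap either. Shares of mRNA, mitochondrial rRNA and mRNA, mitochondrial tRNA, snRNA, other nuclear rRNA and other noncoding RNA all lay lower in ubc9-1. Only those of Ty retrotransposon features, snoRNA and other reading frames overlapped. Of the nuclear tRNA counts, the glycine tRNA genes tG(GCC) alone took 12.5% and 16.3% in ubc9-1, against 47.5% and 50.6% in WT. Reads with several alignments were counted at each of them, so these are shares of counts and not of reads. In bulk RNA of this kind, fewer cells with an RNA and less of it per cell cannot be told apart.

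With rapamycin, the edgeR quasi-likelihood test called 76 features higher and 47 lower in ubc9-1 than in WT (adjusted p under 0.05), which is 2.01% of the features tested, with 1.24% higher and 0.769% lower. At an unadjusted p under 0.05 there were 1089. The DESeq2 Wald test called 5.61% of the features (3.11% higher, 2.5% lower), and edgeR with scaling by total counts 0.442% (0.147% higher, 0.294% lower). Of the calls, 73 higher and 43 lower were mRNAs, 32 higher and 4 lower had a log2 fold change beyond 2 in size, and the median over all tested features was a log2 fold change of −0.00. In all 123 the ranges of the strains did not overlap, as they did not in 54.4% of all tested features (27.2% higher and 27.2% lower). Genes of the general stress response and of ribosome assembly stood among the features called higher. Glycine tRNA genes, single genes of amino acid and purine synthesis and the spliceosomal U4 RNA stood among those called lower. These calls depend on each rapamycin library: without 1 of these 4 at a time, edgeR called 15 and 0, 14 and 1, 4 and 0, and 2 and 0 features higher and lower (without ubc9-1 replicate 1, ubc9-1 replicate 2, WT replicate 1 and WT replicate 2), and ADE2 alone was called each time. All 123 kept their direction. Leave-out values of lists and genes given later are likewise those without 1 of the 4 rapamycin libraries.

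The strains differed at the UBC9 locus and at marker genes. UBC9 (chromosome IV, 337487 to 338070, R64) had 16.8 and 19.6 TMM-scaled CPM in ubc9-1, against 3.40 and 3.96 in WT. Every ubc9-1 library was above both WT libraries. The log2 fold change was 2.30 ± 0.60 (SE of the fit) and did not pass the test (adjusted p = 0.0664). PEX19, which guides peroxisomal membrane proteins, is the neighbour of UBC9 and is read in the opposite direction, starting from the same intergenic stretch (336249 to 337277, minus strand). It had 138 and 128 in ubc9-1, against 20.9 and 16.7 in WT. PEX19 was higher by 2.82 ± 0.32 with rapamycin (adjusted p = 0.00167) and also without drug, at 2.40 (adjusted p = 0.00227).

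ADE2, of adenine synthesis, had 8.50 and 13.2 TMM-scaled CPM in ubc9-1 and no count in either WT library with rapamycin, although the untreated WT libraries held 14 and 9 ADE2 counts. Against 3 counts over the WT group, this is at least 191-fold higher (adjusted p = 9.07e-05). TRP1, of tryptophan synthesis, had 1.67 and 3.23 in ubc9-1 and no count in any WT library of the series; with rapamycin it was at least 43.4-fold higher (adjusted p = 0.00909), and it overlaps a second annotated frame. HIS3, of histidine synthesis, had 101 and 99.2 in ubc9-1, against 16.2 and 19.6 in WT, and was higher by 2.48 ± 0.32 (adjusted p = 0.00233). LYS2, of lysine synthesis, was lower by the test, with 14.3 and 17.3 in ubc9-1 against 39.8 and 40.9 in WT (log2 fold change −1.36, adjusted p = 0.0264). LEU2 was at 0.27 and URA3 at 0.77, neither called. Of the 8 marker genes tested 3 were higher and 1 lower (37.5% and 12.5%, against 1.24% and 0.769% of all features). Strain background and the ubc9-1 allele thus cannot be told apart in any comparison of these strains.

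The largest calls upward among features averaging at least 50 counts, beside ADE2, PEX19 and HIS3, include several stress genes. HSP12, which encodes a small membrane-stabilising stress protein, had 135 and 145 TMM-scaled CPM in ubc9-1, against 20.8 and 10.5 in WT. Its ubc9-1 libraries lay far above both WT libraries, at a log2 fold change of 3.16 ± 0.41 (adjusted p = 0.00233), and the call was made again in 3 of the 4 fits that left out 1 library. TSA2, a peroxiredoxin, had 20.9 and 19.1 in ubc9-1, against 3.27 and 2.36 in WT (2.83 ± 0.35, adjusted p = 0.00177). GRX1, a glutaredoxin, had 21.4 and 21 in ubc9-1, against 3.27 and 3.06 in WT (2.74 ± 0.38, adjusted p = 0.0041). In both genes the replicates of a strain were close. That the strains did not overlap was a condition for naming each gene of this paragraph, HSP12 included. GND2, of the pentose phosphate pathway, was higher by 2.50 (15.6 and 11.5 in ubc9-1, 2.92 and 1.88 in WT), and ARG3, of arginine synthesis, by 2.99 (5.39 and 12 in ubc9-1, 0.989 and 1.18 in WT). The uncharacterised YBR085C-A was higher by 2.74, UIP4, whose protein binds the SUMO protease Ulp1, by 2.35, HSP10, of the mitochondrial chaperonin, by 2.31, YSF3, a splicing factor, by 2.27, and the enolase-like ERR3 by 2.23. RPS29A was the one ribosomal protein gene called, with 11.4 and 8.50 in ubc9-1 against 2.71 and 1.56 in WT (2.22 ± 0.41, adjusted p = 0.0194), while its difference without drug was −0.01. TSA2, YBR085C-A, UIP4 and HSP12 were called higher without drug as well, at 2.20, 2.50, 2.07 and 1.68. GRX1, GND2, ARG3, HSP10, YSF3 and ERR3 were then at 0.93 to 1.52 and not called.

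**Figure D1:**
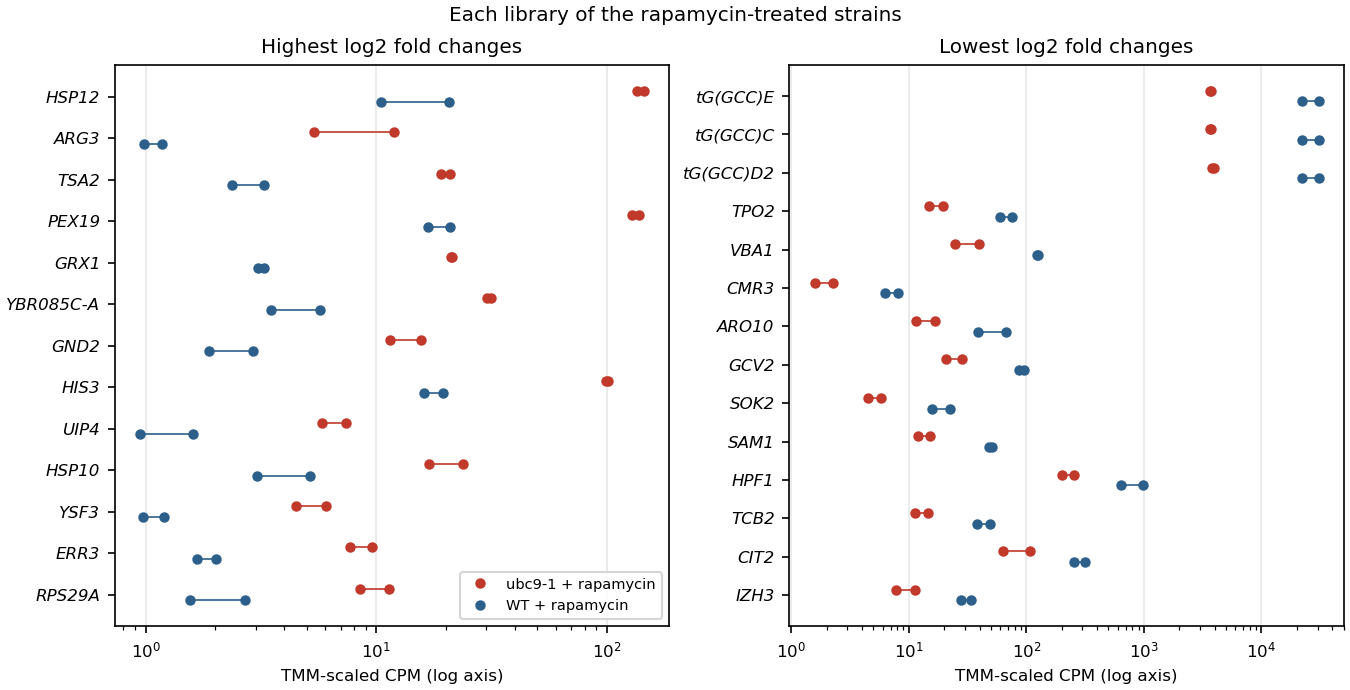
TMM-scaled CPM (log axis) in each rapamycin library of the 13 called features with the highest log2 fold change among those averaging at least 50 counts, with counts in both strains (left), and the 14 called with the lowest at that mean count (right), with ubc9-1 in red and WT in blue; lines join the 2 replicates. In each feature drawn, both libraries of a strain lie on the same side of both libraries of the other. This was a condition for being drawn.

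Among the features called lower with a mean count of at least 50, apart from tRNA genes, the largest changes were in a polyamine exporter and a vacuolar transporter. TPO2, a polyamine exporter, had 14.8 and 19.6 TMM-scaled CPM in ubc9-1, against 59.8 and 75.9 in WT (−1.98 ± 0.31, adjusted p = 0.00767). VBA1, which carries basic amino acids into the vacuole, had 24.9 and 39.7 in ubc9-1, against 125 and 122 in WT (−1.94 ± 0.31, adjusted p = 0.00982). Without drug VBA1 had 7.88 and 9.08 in ubc9-1 and 7.83 and 7.99 in WT, so all rapamycin libraries were above all untreated ones, and the strains lay apart in the treated libraries and together in the untreated ones. The test of that change in the strain difference gave an adjusted p of 0.0919. GCV2, of the glycine cleavage complex, had 20.6 and 28.1 in ubc9-1, against 86.3 and 94.9 in WT (−1.90, adjusted p = 0.0355). SAM1, which makes S-adenosylmethionine, had 12 and 15.2 in ubc9-1, against 50.6 and 48.1 in WT (−1.86, adjusted p = 0.0105). CIT2, the peroxisomal citrate synthase, had 63.8 and 108 in ubc9-1, against 255 and 316 in WT (−1.73, adjusted p = 0.0359). In each of these 3 genes the higher ubc9-1 library stayed below the lower WT library, as the rule for naming them required. CMR3, a putative zinc finger protein, and SOK2, a transcription factor, were at −1.90 and −1.88, ARO10, of amino acid breakdown to alcohols, at −1.90, HPF1, a cell wall protein, at −1.82, TCB2, a tether of the endoplasmic reticulum, at −1.75, and IZH3, of zinc homeostasis, at −1.68.

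The general stress genes are a set that the factors Msn2 and Msn4 switch on in many stresses. Of 61 listed and tested, 14 were higher (23.0%, against 1.24% of all features), none was lower and 44 had an unadjusted p under 0.05; 57 had a positive log2 fold change. Their median was 1.20, against −0.00 over all features, and without 1 library at a time it stayed between 1.17 and 1.27. Without ubc9-1 replicate 1 or 2, 5 or 4 members were called, without WT replicate 1 only 1, and without WT replicate 2 none; with scaling by total counts 2 were called. Beside HSP12, GRX1 and GND2, the members called were CYC7, CTT1, HSP42, TMA17, OM45, RTN2, DDR2, GRX2, GPH1, GAC1 and MSC1, at 1.49 to 2.32. They include the cytosolic catalase (CTT1), a small heat shock protein (HSP42), glycogen phosphorylase (GPH1) and a second glutaredoxin (GRX2). Without drug 13 of the 61 members were higher in ubc9-1, where 2.29% of all features were, and the median was 0.94. The change of the strain difference with drug had a median of 0.29.

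The list's recognition motif can be read in the DNA. Msn2 and Msn4 bind AGGGG, and this string or its reverse complement CCCCT stood in the 300 bases from 400 to 101 before the start codon of 50 of the 61 stress genes (82.0%) and of 13 of the 14 called. It stood in 24.2% of such windows of all tested mRNAs, in 39 of the 73 mRNAs called higher (53.4%) and in 5 of the 43 called lower (11.6%). The list is defined by Msn2 and Msn4, so its share was not a test of them. The 73 include the 14 called list members. The window of HSP12 (chromosome VI, 106856 to 107155, plus strand, R64 sequence from RefSeq) is shown because that gene led the list, with its 3 matches in capitals; a match is a description of the letters and not a measured site.
HSP12 upstream: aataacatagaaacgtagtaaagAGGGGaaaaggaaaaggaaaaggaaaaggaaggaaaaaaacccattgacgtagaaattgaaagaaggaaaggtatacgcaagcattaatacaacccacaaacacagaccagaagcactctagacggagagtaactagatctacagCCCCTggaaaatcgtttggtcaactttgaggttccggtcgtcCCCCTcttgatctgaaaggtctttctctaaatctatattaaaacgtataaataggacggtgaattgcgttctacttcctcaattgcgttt

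Ribosome biogenesis genes encode factors that assemble ribosomal subunits. Of 142 listed and tested, 9 were higher with rapamycin (6.34%, against 1.24% of all features) and none was lower, and 122 had a positive log2 fold change. Their median was 0.62, and 0.53 to 0.70 without 1 library at a time. None of the 9 was called without ubc9-1 replicate 1, WT replicate 1 or WT replicate 2, and 1 was without ubc9-1 replicate 2; none was called with scaling by total counts. Without drug the median was −0.67, with none higher and 4 of the 142 lower, where 2.29% of all features were higher and 2.4% lower. The change of the strain difference with drug had a median of 1.34 and was called in 1 member, LTV1.

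BRX1, of large-subunit assembly, had 4.40 and 1.58 TMM-scaled CPM in ubc9-1, against 0.344 and 0.347 in WT, from 58 and 24 counts against 8 and 10. It was higher by 3.08 ± 0.57 (adjusted p = 0.0198). Without drug it had 5.07 and 5.97 in ubc9-1 and 6.05 and 9.98 in WT. WT with rapamycin was thus the group that stood lowest, and replicate 1 of ubc9-1 lay nearer to the untreated values than replicate 2. ENP2, of the small-subunit processome, had 14.1 and 9.75 in ubc9-1, against 3.87 and 2.54 in WT (1.90, adjusted p = 0.0198), and ESF2, also of small-subunit assembly, 7.21 and 3.49 in ubc9-1, against 1.55 and 1.46 in WT (1.82, adjusted p = 0.0418). The other members called, BUD20, RRS1, DRS1, SAS10, LTV1 and NUG1, were at 1.33 to 1.71. The motif GATGAG (or CTCATC), known from the promoters of these genes, stood in the same window of 90 of the 142 (63.4%), of 5 of the 9 called and of 18.0% of all tested mRNAs. The window of BRX1 (chromosome XV, 186824 to 187123, minus strand, R64 sequence from RefSeq), the largest call of the list, holds 1, in capitals.
BRX1 upstream: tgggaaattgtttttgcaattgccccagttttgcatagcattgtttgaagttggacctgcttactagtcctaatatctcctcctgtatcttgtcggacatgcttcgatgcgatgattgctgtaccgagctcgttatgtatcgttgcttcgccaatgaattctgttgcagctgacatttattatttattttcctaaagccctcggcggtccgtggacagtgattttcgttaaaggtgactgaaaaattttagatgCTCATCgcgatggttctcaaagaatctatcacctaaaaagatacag

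Genes under nitrogen catabolite repression serve the use of poor nitrogen sources. Of 45 listed and tested, 1 was lower (2.22%, against 0.769% of all features), none was higher, and 38 had a negative log2 fold change, with a median of −0.46 (−0.83 to −0.37 without 1 library at a time) and 0.45 without drug. The call was GDH2, which releases ammonium from glutamate, with 84.7 and 111 TMM-scaled CPM in ubc9-1, against 260 and 291 in WT (−1.50, adjusted p = 0.0438). Without drug GDH2 had 25.7 and 22.3 in ubc9-1 and 29.4 and 17.9 in WT, where the strains overlapped. DAL4, the allantoin permease, had 7.66 and 6.39 in ubc9-1, against 16.9 and 18.0 in WT (−1.31, adjusted p = 0.0537). Without drug its order was turned round, with 4.14 and 3.20 in ubc9-1, against 1.51 and 1.16 in WT, and the change of the strain difference was called (−2.77, adjusted p = 0.0445). GATAAG, the core that GATA factors of this regulon bind, or its reverse complement CTTATC, stood upstream of 33 of the 45 (73.3%), of 15 of the 43 mRNAs called lower (34.9%) and of 14.2% of all tested mRNAs.

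In amino acid and purine synthesis single genes were called. Of 68 amino acid synthesis genes 1 was higher, ARG3 (1.47%), and 3 were lower (4.41%), with a median of −0.19. Over all features 1.24% were higher and 0.769% lower. MET6, the methionine synthase, had 46.2 and 61.0 TMM-scaled CPM in ubc9-1, against 151 and 172 in WT (−1.59, adjusted p = 0.0264). SHM2, which makes one-carbon units from serine, had 21.4 and 24.2 in ubc9-1, against 59.6 and 72.1 in WT (−1.53, adjusted p = 0.0198), and ARG4, of arginine synthesis, 39.5 and 41.8 in ubc9-1, against 98.6 and 105 in WT (−1.32, adjusted p = 0.0359). ARG3 and ARG4, enzymes of the same pathway, were thus called in opposite directions. Of 19 purine synthesis genes 3 were lower (15.8%, against 0.769% of all features), none was higher and the median was −0.33. ADE17 had 8.80 and 7.51 in ubc9-1, against 18.2 and 30.4 in WT (−1.58, adjusted p = 0.0349), ADE6 25.0 and 19.7 in ubc9-1, against 71.0 and 52.6 in WT (−1.47, adjusted p = 0.0301), and IMD2, of GTP synthesis, 5.46 and 7.77 in ubc9-1, against 13.5 and 19.5 in WT (−1.32, adjusted p = 0.0499). ADE2, of the same pathway, differed between the strains as given above, and its part in these values was not tested. With any 1 of the 4 libraries left out, no purine gene was called.

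Several smaller lists held single calls, where 1.24% of all features were higher and 0.769% lower. Shares called higher were 8% in DNA damage response genes, 7.69% in chaperone genes, 11.8% in hexose transporters and 1.67% in respiration genes. Shares called lower were 1.67% in respiration genes and 8.33% in mitotic and histone genes. Of 25 DNA damage response genes HUG1, an inhibitor of ribonucleotide reductase, was higher, with 55 and 38 counts in ubc9-1 and none in WT (at least 56.9-fold, adjusted p = 0.0041), and so was RNR3, a subunit of that enzyme, with 11 and 9.42 TMM-scaled CPM in ubc9-1, against 2.49 and 3.16 in WT (1.85, adjusted p = 0.0192). Without drug RNR3 was called higher too, at 2.39, and HUG1 was at 2.46 and not called. A list of 26 chaperone genes, labelled cytosolic, also holds mitochondrial ones such as HSP10. In it HSP10 and BTN2 were higher (2.31 and 1.88), and the list median was 0.04. HXT7 and HXT6, near-identical high-affinity glucose transporters that share reads, were both at 1.83, and were the 2 of 17 hexose transporters called. Of 60 respiration genes NDE1, the external NADH dehydrogenase, was higher (1.66, adjusted p = 0.0198) and CIT2 lower. Of 36 mitotic and histone genes the daughter-cell wall enzymes CTS1, EGT2 and SCW11 were lower, at −1.36, −1.22 and −1.22. All were called lower without drug too, at −1.16, −1.05 and −1.45. Of 7 genes of mating type a, 1 was lower (14.3%), with a list median of −0.64, and 3 had a positive log2 fold change. The call was STE2, the receptor for alpha factor that a cells make, at −1.46 (21.2 and 21.4 in ubc9-1, 60.2 and 56.8 in WT). Of 31 ergosterol and lipid synthesis genes 1 was lower (3.23%), with a list median of −0.54. It was OLE1, the fatty acid desaturase, at −1.51 (134 and 161 in ubc9-1, 418 and 419 in WT).

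No SUMO pathway mRNA was called by edgeR among 18 tested (2 at an unadjusted p under 0.05, none by DESeq2). SMT3, which encodes SUMO, was at 0.32 and the ligase SIZ1 at 0.55. None of 12 RNA polymerase III subunit mRNAs was called (1 at an unadjusted p under 0.05, none by DESeq2), with a median of 0.70 and RPC82 at 0.28. None of the 11 mRNAs of TFIIIA, TFIIIB, TFIIIC and Maf1 was called (1 at an unadjusted p under 0.05, none by DESeq2), with a median of −0.28. Without drug these medians were −0.48 and 0.43. None of 81 large-subunit ribosomal protein mRNAs was called by edgeR (12 at an unadjusted p under 0.05, 3 by DESeq2). Over all 6115 features 1089 had such a p and DESeq2 called 5.61%. Of 56 of the small subunit RPS29A alone was called (1.79% higher, against 1.24% of all features). Both lists had medians of −0.09.

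**Figure D2:**
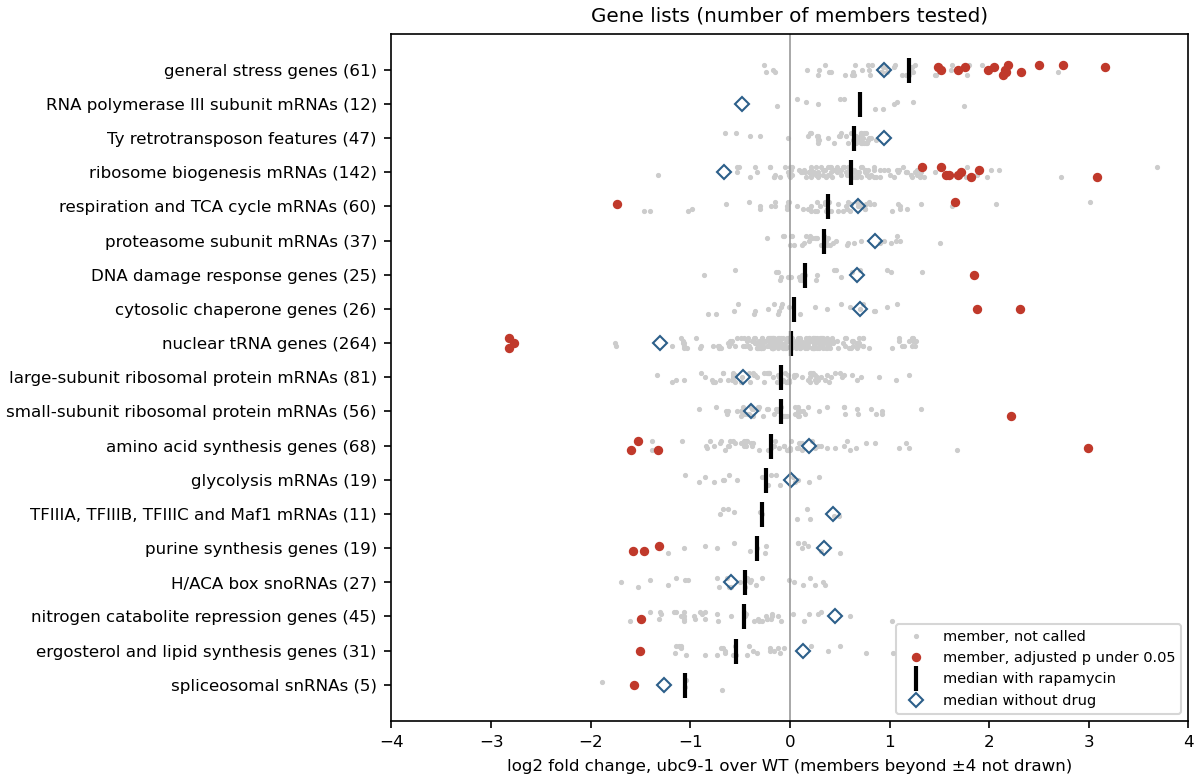
Log2 fold changes, ubc9-1 over WT with rapamycin, of the tested members of 19 gene lists (points, red where the adjusted p was under 0.05), with each list's median with rapamycin (bar) and without drug (diamond). General stress genes have the highest median, 1.20, and hold 14 red points, while ribosome biogenesis mRNAs have medians of 0.62 with rapamycin and −0.67 without drug; members beyond 4 in size are not drawn.

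Nuclear tRNA genes centred on no difference with rapamycin after TMM scaling. Of 264 tested of 275, 3 were lower (1.14%, against 0.769% of all features) and none was higher. At an unadjusted p under 0.05 there were 18, against 1089 of all 6115 features. DESeq2 called 5, where it called 5.61% of all features. Their median was 0.01 and ran from −0.30 without WT replicate 2 to 0.53 without WT replicate 1. Without drug 70 of the 264 were lower in ubc9-1, where 2.4% of all features were, none was higher and the median was −1.30. Summed over anticodons, 1 of 41 families was called (2.44%), with a median over families of −0.09, against 15 lower (36.6%) and a median of −1.46 without drug. The change of the strain difference with drug was positive in 39 of 41 families, with a median of 1.31. In 21 families it had an unadjusted p under 0.05. It was called in none by the reported edgeR fit, in 5 by DESeq2, and in 23 by edgeR with the replicate number as a block. The highest families were tG(UCC) at 1.10 and tS(AGA) at 1.03, neither called in the reported fit. With the replicate block edgeR called both (adjusted p = 0.00675 and 0.00683).

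**Figure D3:**
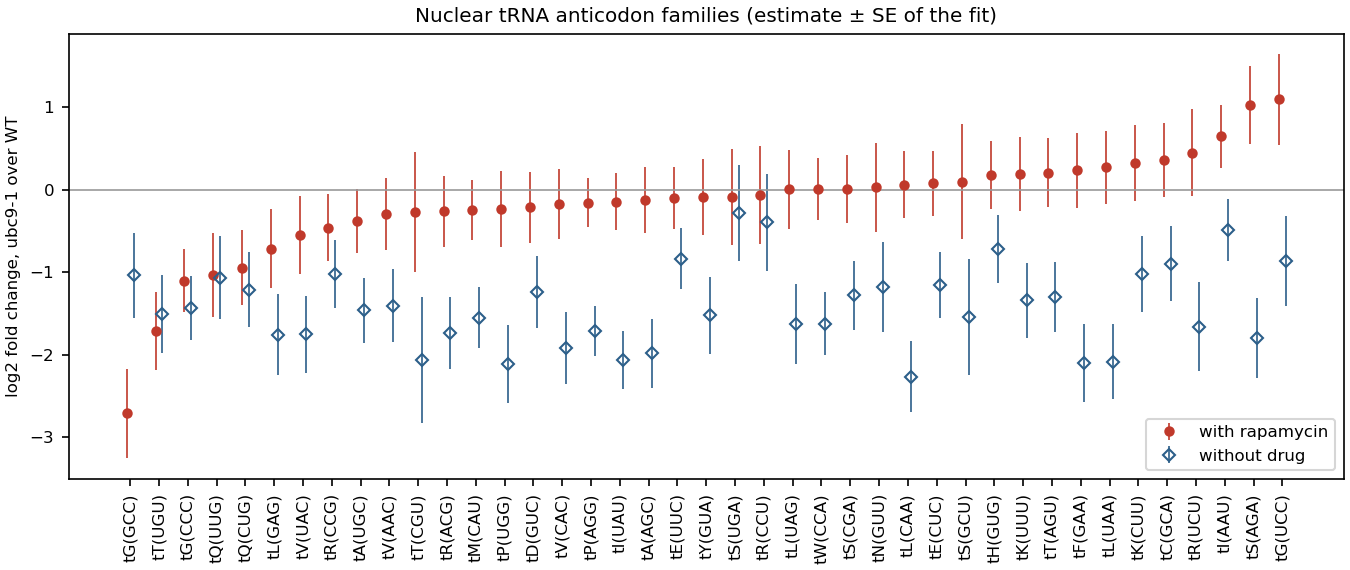
Log2 fold change, ubc9-1 over WT, of the 41 nuclear tRNA anticodon families with rapamycin (filled red) and without drug (open blue), in the order of the values with rapamycin; bars are ± 1 SE of the fit. With rapamycin tG(GCC) lies lowest, at −2.71, and the median is −0.09, while without drug the median is −1.46.

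The family called was tG(GCC), a glycine tRNA. It had 12456 and 11808 TMM-scaled CPM in ubc9-1, against 93469 and 65201 in WT, at −2.71 ± 0.54 (adjusted p = 0.0147); without drug it was at −1.03. The call was lost without any 1 rapamycin library, at −2.95 to −2.43 and an adjusted p of 0.055 to 0.153. The next, tT(UGU), was at −1.71 (adjusted p = 0.0576). The 16 genes of tG(GCC) share a single sequence of 71 bases, printed here with the anticodon in capitals for the gene on chromosome V (61890 to 61960, minus strand, R64 sequence from RefSeq).
tG(GCC)E: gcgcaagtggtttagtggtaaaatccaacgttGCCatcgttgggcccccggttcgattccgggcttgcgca

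Within this sequence-identical family the genes did not move together. tG(GCC)E had 49353 and 55889 counts in ubc9-1, against 710896 and 633550 in WT (−2.82 ± 0.57, adjusted p = 0.0264). tG(GCC)C on chromosome III was at −2.82 and tG(GCC)D2 on chromosome IV at −2.77, both called and both with nearly the same counts as tG(GCC)E, because a read that aligns to all 3 was counted in each. The other 13 genes had at most 1109 counts in ubc9-1 and 3584 in WT and log2 fold changes of −0.56 to −0.18, with no call. The family's fold change therefore rests on 3 genes.

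The 3 genes called also differ from the other 13 in the genome sequence just behind the gene, a feature looked at after the values were seen. Mature tRNA ends in CCA, which is added after transcription and is not encoded in yeast tRNA genes, so a read from a mature tRNA carries CCA where the genome has other bases. In the 3 genes called, the first 3 bases after the gene match CCA at 1 position, and in the other 13 at none. The last 10 bases of the gene and the next 10 are shown for these 3 genes and for 3 of the others, with the agreeing base in capitals.
Gene tG(GCC)C on chromosome III: ggcttgcgcatCttttttac
Gene tG(GCC)D2 on chromosome IV: ggcttgcgcaCttttttagc
Gene tG(GCC)E on chromosome V: ggcttgcgcagCtttatttt
Gene tG(GCC)B on chromosome II: ggcttgcgcaattctttttg
Gene tG(GCC)G1 on chromosome VII: ggcttgcgcaatgttttttc
Gene tG(GCC)P2 on chromosome XVI: ggcttgcgcagattttattt

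The mean count of the 3 agreeing genes over that of the 13 others was 50.7 and 57.5 in ubc9-1, against 265 and 451 in WT with rapamycin. Without drug the ratio was 166 and 71.1 in ubc9-1 and 116 and 185 in WT, where the strains overlapped. With rapamycin the mean log2 fold change was −2.81 in the agreeing genes and −0.24 in the others, and without drug it was −1.01 and −0.99. Summed only over genes that agree at no position, an alternative chosen after seeing the data, tG(GCC) was at −0.24 (adjusted p = 0.842) and tG(CCC), another glycine family, was called at −1.74 (adjusted p = 0.0276). That sum holds 1 gene, tG(CCC)D, which was not called as a single gene (adjusted p = 0.0547); the gene left out, tG(CCC)O, was at −0.61 and both together at −1.10 (adjusted p = 0.120). The sources used here do not give the mismatch limit of the aligner, and the part of read ends in this difference was not tested.

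The same split could be made in 21 sets of tRNA genes of identical sequence that hold both kinds of gene. With rapamycin the ratio of agreeing to other genes was lower in both ubc9-1 libraries than in both WT libraries in 14 sets, higher in none, and overlapped in 7. In 12 of the 14 the mean log2 fold changes of the agreeing and the other genes differed by over 0.1, and tG(UCC) counts among the 14 with ratios of 1.00 in every rapamycin library. Without drug it was lower in 7, higher in 3 and overlapped in 11. The agreeing genes had the lower mean log2 fold change in 18 of the 21 sets (13 without drug), and the higher one in tP(UGG), tV(UAC) and tQ(UUG), by 0.34, 0.30 and 0.10. In tE(UUC) the agreeing genes were at −0.71 and the others at 0.24, and in tT(UGU) at −1.76 and −1.18. In tD(GUC) they were at −0.47 and −0.17. The sets share the same 4 libraries and are not independent of each other. With rapamycin, 27.2% of all tested features had both ubc9-1 libraries below both WT libraries in TMM-scaled CPM. No such share was computed for ratios of genes. Over all 264 tested genes, the median was 0.06 for the 76 that agree at 1 or more positions and −0.00 for the 188 that agree at none.

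**Figure D4:**
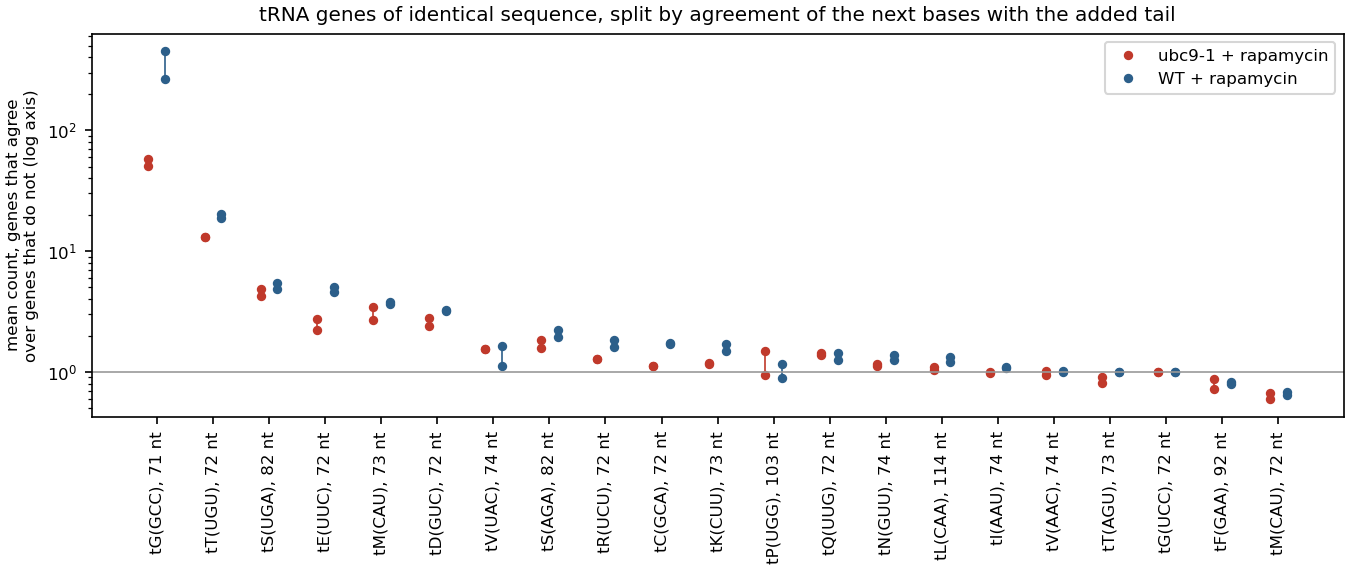
Mean count of tRNA genes whose next 3 bases match the added tail at 1 or more positions, over that of genes of the same sequence that agree at none (log axis), in each rapamycin library, for 21 sets named by anticodon and gene length. In tG(GCC) the ratio is 50.7 and 57.5 in ubc9-1 (red), against 265 and 451 in WT (blue). In 14 of the 21 sets both ubc9-1 points lie below both WT points. Of all tested features, 27.2% had both ubc9-1 libraries below both WT libraries in TMM-scaled CPM.

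Other small RNAs were mostly not called. The 5S gene RDN5-1 had 195000 and 151392 TMM-scaled CPM in ubc9-1, against 86473 and 62679 in WT, with no overlap, and its log2 fold change of 1.22 ± 0.44 did not pass (adjusted p = 0.162). Among other products of RNA polymerase III, SCR1, of the signal recognition particle, was at −0.51, RPR1, of RNase P, at 0.50, the spliceosomal SNR6 at −0.68 and the snoRNA SNR52 at 0.13, none called. None of 41 C/D box snoRNAs (8 at an unadjusted p under 0.05, 2 by DESeq2) and none of 27 H/ACA box snoRNAs (7 and 3) was called by edgeR, with medians of −0.10 and −0.45. Over all 6115 features 1089 had such a p and DESeq2 called 5.61%. Scaling by snoRNAs moved the median of all features to 0.21 and those of the 2 lists to 0.13 and −0.22. The lists then lay −0.08 and −0.44 from the median of all features. SNR30, needed for 18S rRNA processing, was at −1.41 (adjusted p = 0.0723) and SNR17A, the U3 snoRNA, at 0.13.

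The 5 spliceosomal snRNAs tested were all below 0, with a median of −1.05 (−1.26 without drug). Of these, 1 was called lower (20%, against 0.769% of all features). SNR14, the U4 RNA, had 15.6 and 16.1 TMM-scaled CPM in ubc9-1, against 46.0 and 47.7 in WT (−1.57 ± 0.31, adjusted p = 0.0264), a difference far wider than that between replicates. Without drug it had 21.8 and 14.5 in ubc9-1, against 71.0 and 52.0 in WT. LSR1, the U2 RNA, was at −1.04 (adjusted p = 0.144) and SNR19, the U1 RNA, at −1.05 (adjusted p = 0.213). The SNR14 gene (chromosome V, 167427 to 167586, minus strand, R64 sequence from RefSeq) is given because it was the one snRNA called; capitals mark ATTTTTG, a string of the kind that binds the Sm proteins, which a search on the strand shown found 1 time.
SNR14: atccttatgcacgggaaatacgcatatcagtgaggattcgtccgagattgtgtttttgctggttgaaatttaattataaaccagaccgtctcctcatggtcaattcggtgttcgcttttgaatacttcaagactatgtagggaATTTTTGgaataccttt

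Mitochondrial rRNA and mRNA stood together as well. All 10 tested of 11 listed were below 0 with an unadjusted p under 0.05, with a median of −1.0. None was called by edgeR and 4 were by DESeq2. Beside the counts in this paragraph, 1089 of all 6115 features had such a p and DESeq2 called 5.61%. Mitochondrial tRNAs had a median of −0.94 over 19 genes with no call by edgeR (5 at an unadjusted p under 0.05, 1 by DESeq2), which moved to 0.07 without WT replicate 1. Ty retrotransposon features, none called by edgeR among 47 tested (16 at an unadjusted p under 0.05, 1 by DESeq2), had a median of 0.64 with rapamycin and 0.95 without drug. With the trend in gene length described next taken out, 30 of the 47 were called higher (2.89% of all features were). Their list median was then 0.93. Reads with several alignments were counted at each of them, so similar Ty features can share reads and their calls are not separate results.

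Fold changes moved with the annotated length of mRNAs. The median log2 fold change was 0.66 in mRNAs of up to 300 nt, 0.47 up to 600 nt, 0.16 up to 1000 nt, −0.03 up to 1500 nt, −0.09 up to 2500 nt and −0.27 in longer ones. Without drug the medians of the same groups were 0.22, 0.21, 0.10, 0.13, 0.03 and −0.04. The mRNAs called higher had a median length of 981 nt and those called lower 1632 nt, against 1254 nt in all tested. With a smooth trend in length taken out, an alternative chosen after seeing the data, 122 of the 123 calls were made again among 177 higher and 162 lower (5.54% of those tested, 2.89% and 2.65%). General stress genes then had 22 higher and a median of 1.26, ribosome biogenesis mRNAs 18 higher and a median of 0.68, and nitrogen genes 1 higher and 13 lower. Nuclear tRNA genes then had 12 higher and 7 lower, at a median of −0.04.

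**Figure D5:**
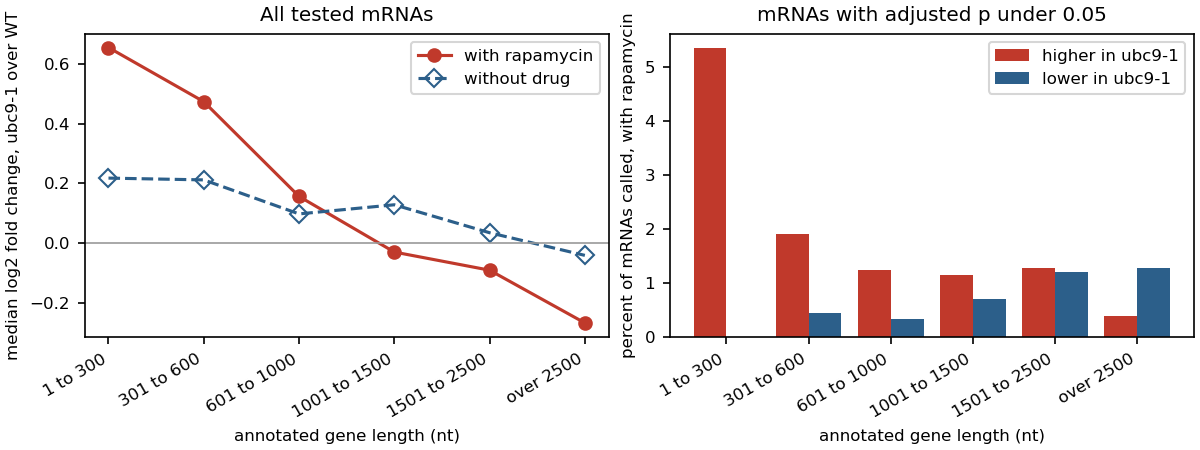
Left, median log2 fold change, ubc9-1 over WT, of tested mRNAs by annotated gene length with rapamycin (red) and without drug (blue). Right, percent of tested mRNAs called higher (red) or lower (blue) in ubc9-1 with rapamycin; among mRNAs of up to 300 nt 5.36% were higher and none was lower.

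Part of the strain difference was also present without the drug. That comparison uses none of the rapamycin libraries, though it shares their estimate of the spread. It called 140 features higher and 147 lower in ubc9-1 (4.69% of those tested, 2.29% and 2.4%). Of the features called higher with rapamycin, 28 were also higher without drug, which is 36.8% of the 76 and 20% of the 140, and 61 of the 76 had the same sign. Of those called lower, 12 were also lower without drug, which is 25.5% of the 47 and 8.16% of the 147, and 41 of the 47 had the same sign. LTV1, of small-subunit assembly, was called higher with rapamycin and lower without drug. A test of the change of the strain difference with drug called 8 features with a positive and 2 with a negative change (0.164% of those tested, 0.131% and 0.0327%).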

How the data were processed

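Per the submitters' processing notes, reads were processed with TopHat2 2.0.13 and featureCounts 1.4.6-p3 against R64. The authors deposited raw counts of read pairs per gene. Per the file headers, strand was ignored and reads with several alignments were counted at each of them. The authors' deposited CPM served only an alternative test (limma on log2 of CPM + 1).

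Counts of all 8 libraries were fitted in edgeR 4.0.16 (R 4.3.3; 1 coefficient per group, TMM, filterByExpr with a minimum count of 10, quasi-likelihood F test, Benjamini-Hochberg over all features). Standard errors were derived from the F statistic. Alternatives, including DESeq2 1.42.0, are given in the closing section. The step was tested on simulated data.

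Members and gene lists were chosen with earlier results of these data known. Named features are the 14 highest and 14 lowest called (mean count 50 or more) whose strains do not overlap, up to 3 called in each direction per list (the 2 most counted where none was), the called families, the 5 highest and lowest interactions and a set of fixed genes. Other names, and the features singled out by their gene ends, were chosen after their values were seen. A fold against 0 was set against 3 counts over the group, which covers counting error only.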

Additional observations from a re-analysis of the deposited data

Results flagged for a closer look

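In 10 features the strain difference with rapamycin differed from that without drug by the edgeR interaction test (0.164% of those tested). Values are the log2 strain difference (ubc9-1 over WT) with rapamycin minus that without drug.

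SNR58, SNR39B, SNR60 and SNR55, short C/D box snoRNAs, led, and their strain differences were large without drug. SNR58 had 251 and 246 TMM-scaled CPM in ubc9-1, against 187 and 138 in WT with rapamycin. Without drug it had 19.6 and 37.1 in ubc9-1, against 873 and 593 in WT, so the untreated ubc9-1 libraries stood far below all others (change 5.31, adjusted p = 0.000916). SNR39B changed by 5.19 (adjusted p = 0.000916). SNR60 changed by 8.24 (adjusted p = 0.00151), on few counts: 50 and 66 in ubc9-1, against 35 and 16 in WT with rapamycin, and 0 and 4 in ubc9-1, against 104 and 131 in WT without drug. SNR55 changed by 5.33 (adjusted p = 0.0445), with ubc9-1 replicates at 69.7 and 8.17 with rapamycin. EFB1, a translation elongation factor whose gene hosts snR18, changed by 4.12 (adjusted p = 0.00241). It had 87.3 and 88.2 in ubc9-1, against 91.7 and 79.97 in WT with rapamycin, and 72.8 and 94.2 in ubc9-1, against 1749 and 1096 in WT without drug.

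The tRNA gene tS(AGA)D3 changed by 3.49 (adjusted p = 0.0445). The ribosome assembly genes NOP8 and LTV1 changed by 2.82 (adjusted p = 0.0445) and 2.68 (adjusted p = 0.0404). LTV1 had 6.37 and 5.07 in ubc9-1, against 1.68 and 2.29 in WT with rapamycin, and 12.4 and 14.5 in ubc9-1, against 26.3 and 33.8 in WT without drug. The negative changes were those of ADE17, at −2.73 (adjusted p = 0.0475), and DAL4, at −2.77 (adjusted p = 0.0445).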

How the results depend on the processing

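With 2 libraries per group and depth that differs between the strains, the number of calls moved most. The counts of features higher and lower with rapamycin were 76 and 47 in the reported fit. Scaling by total counts gave 9 and 18. They were 155 and 102 with no filter, 190 and 153 by DESeq2, 156 and 122 from the 4 rapamycin libraries alone, 145 and 102 without tRNA, rRNA and Ty features, and 177 and 162 with the length trend taken out. Scaling by snoRNAs left 4 lower, and limma on CPM 10 higher. Without 1 rapamycin library, 2 to 15 were higher and 0 to 1 lower, and without 1 untreated library 97 to 151 and 66 to 80. Of the calls, 61.8% were higher in the reported fit, 33.3% with total counts, 92.7% with snoRNA scaling and 22.7% with limma, and the median of all features moved by −0.34, 0.21 and −0.28. Of the 123 calls, 21, 46 and 31 were made again in these 3.

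Replicate numbers are shared between groups but only 2 exist. Same-numbered libraries correlated by 0.10 to 0.20 across features in their deviations from the group means, positive for every pair of groups. The labels give no batch, and whether libraries were paired was not tested. With the replicate block the counts were 321 and 333, 1012 without drug and 395 for the interaction. Of the families 2 were then higher, 4 lower (6 in all) and 23 called for the interaction. Without drug (287 called) the counts were 124 with total counts, 1145 with snoRNA scaling, 465 with no filter, 609 by DESeq2, 91 to 222 without 1 untreated library (the lowest without ubc9-1 replicate 2) and 128 to 226 without 1 rapamycin library. The interaction (10 called) gave 5 with DESeq2 size factors and with total counts, 16, 52 and 126 with snoRNA scaling, no filter and DESeq2, and 4 to 31 without 1 of the 8 libraries. Families called (1) were 2 with total counts, snoRNA scaling and no filter, 3 by DESeq2 and from the 4 libraries alone, and 0 without any 1 rapamycin library; tG(GCC) was then at −2.95 to −2.43, and at −0.24 over genes whose next bases match the added tail nowhere. Without 5S and Ty counts, the difference in share was 2.84 percentage points for mRNA (−4.61 with them) and 11.3 for snoRNA (−2.34). The cause of these shifts was not tested, beyond the fewer libraries or features that some alternatives use. No called value changed sign. Of the named features' values, 1272 kept their side of the threshold, 51 passed it newly, 274 no longer passed, and 43 uncalled ones changed sign; of list counts, 314 stayed within 1.5 times and 230 did not.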
